A study of Zea mays with 4 samples.

Results

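Chromatin modifier and remodeller genes act on the histones and DNA that package the genome. Histone acetyltransferases add acetyl groups to histone tails and deacetylases remove them. SET-domain proteins methylate histones, DNA methyltransferases methylate cytosines and methyl-CpG-binding proteins carry a domain named for binding methylated DNA. Assembly factors deliver histones to DNA, linker histones bind where DNA enters and leaves the nucleosome, and high mobility group (HMG) proteins bind and bend DNA. Many of these genes are needed when cells copy their chromatin during division, and others keep genes silent or open in tissue that no longer divides.

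Maize names most of these genes by a family prefix and a 3-digit number, and the members were taken by those names: hda, hdt, hag, hac, sdg, dmt, mbd, chr, nfa, nfc, nfd, hon, gte and hmga, plus any name starting with HMG. The rule found 43 of the 1108 genes that the array's gene table names, read by 59 of the array's 17734 probe sets. No probe set carried a chr or hmga name with a 3-digit number, so the remodelling ATPases were not measured under these names. An HMGA gene was present as HMG I/Y-2, which has ZmHMGA among its synonyms. The gene was named by the array's own gene table in 8 cases and through its RefSeq synonyms in 35. A probe set is the group of short probes that reports 1 transcript; names ending in _s_at or _x_at mark probes that can also bind related transcripts.

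Transcript levels came from young stacked internodes of maize at the stage of 6 to 7 leaves, grown with days of 16 h at 25 °C and nights of 8 h at 22 °C. The study labels 2 samples CCR mutant and 2 samples WS. CCR, cinnamoyl-CoA reductase, makes precursors of lignin and is downregulated in the mutant. WS is a name that the sources used here do not spell out. Each sample was put on 1 Affymetrix maize array. The kind of CCR mutation and the genetic background are not given in the sources used here. The WS samples were pools of 185 and 215 µg of their own RNA with 3 further extracts of 1 µg each, and their labels carry a drought entry (36 h, REW 20 to 30%). For the CCR mutant each sample was a lone extract, of 144 or 182 µg, and is labelled as untreated. Genotype, pooling and the recorded drought therefore cannot be told apart. Whether samples of 1 group stem from different plants is not said in the labels. The p-values thus reflect the spread between these arrays alone, and part of it may be technical.

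As deposited, 11038 to 11056 probe sets were at a log2 value of 4 or more on each array. The authors' normalization equalizes the arrays, so this count cannot show whether their raw signals were alike. The annotation names 2 CCR genes, and the labels do not say which one the mutant affects. The probe set of cncr1 was at 10.99 and 10.13 on the WS arrays and at 8.59 and 9.14 on the CCR mutant arrays, a difference of -1.70 (SE 0.38, limma adjusted p = 0.68). That of cncr2 was at 5.93 and 5 against 5.59 and 5.13, a difference of -0.11 (SE 0.39) with overlapping arrays. Marker lists described the tissue. Of 8 secondary wall and xylem genes 7 were tested, and CADR1 lay at background. All 13 photosynthetic leaf genes were tested, with a summed signal of 58254 and 67896 in WS and between 62565 and 68480 in the CCR mutant. Of 19 genes of meristem and dividing cells 16 were tested, while RBR2, cycD1 and orc2 lay at background. In tissue samples, fewer cells of a type and less RNA per cell cannot be told apart.

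The 43 chromatin genes found by name were broadly expressed in the internode, and none of them differed between CCR mutant and WS beyond the threshold of the test. All 43 genes had at least 1 probe set with a log2 value of 4 or more on at least 2 arrays, the minimum for testing. That was 53 of 59 probe sets (89.8%), beside 63.1% of all probe sets without controls and 68.5% of those with 1 gene in the annotation. Of the 53, 0 passed (limma, Benjamini-Hochberg adjusted p under 0.05 over 11085 tested probe sets), where 0.153% of all tested probe sets passed. The lowest adjusted p of a member was 0.772. At an unadjusted p under 0.05 there were 3 members, dmt101, sdg113 and sdg118 (5.66%), beside 6.43% of all tested probe sets.

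The differences were small as measured. They ran from -0.42 to 0.81 on the log2 scale, and 52 of 53 were smaller than 0.5 in size, as were 94.4% of all tested probe sets. The 95% confidence interval lay inside -1 to 1, that is inside a 2-fold change either way, for 51 of 53 members, beside 88.7% of all tested probe sets. The exceptions were sdg113 and hda106. The median standard error of a member was 0.11, and at each member's own error a difference of 1.36 to 5.06 (median 2.02) would have been needed to reach the largest p that passed on the array.

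**Figure D1:**
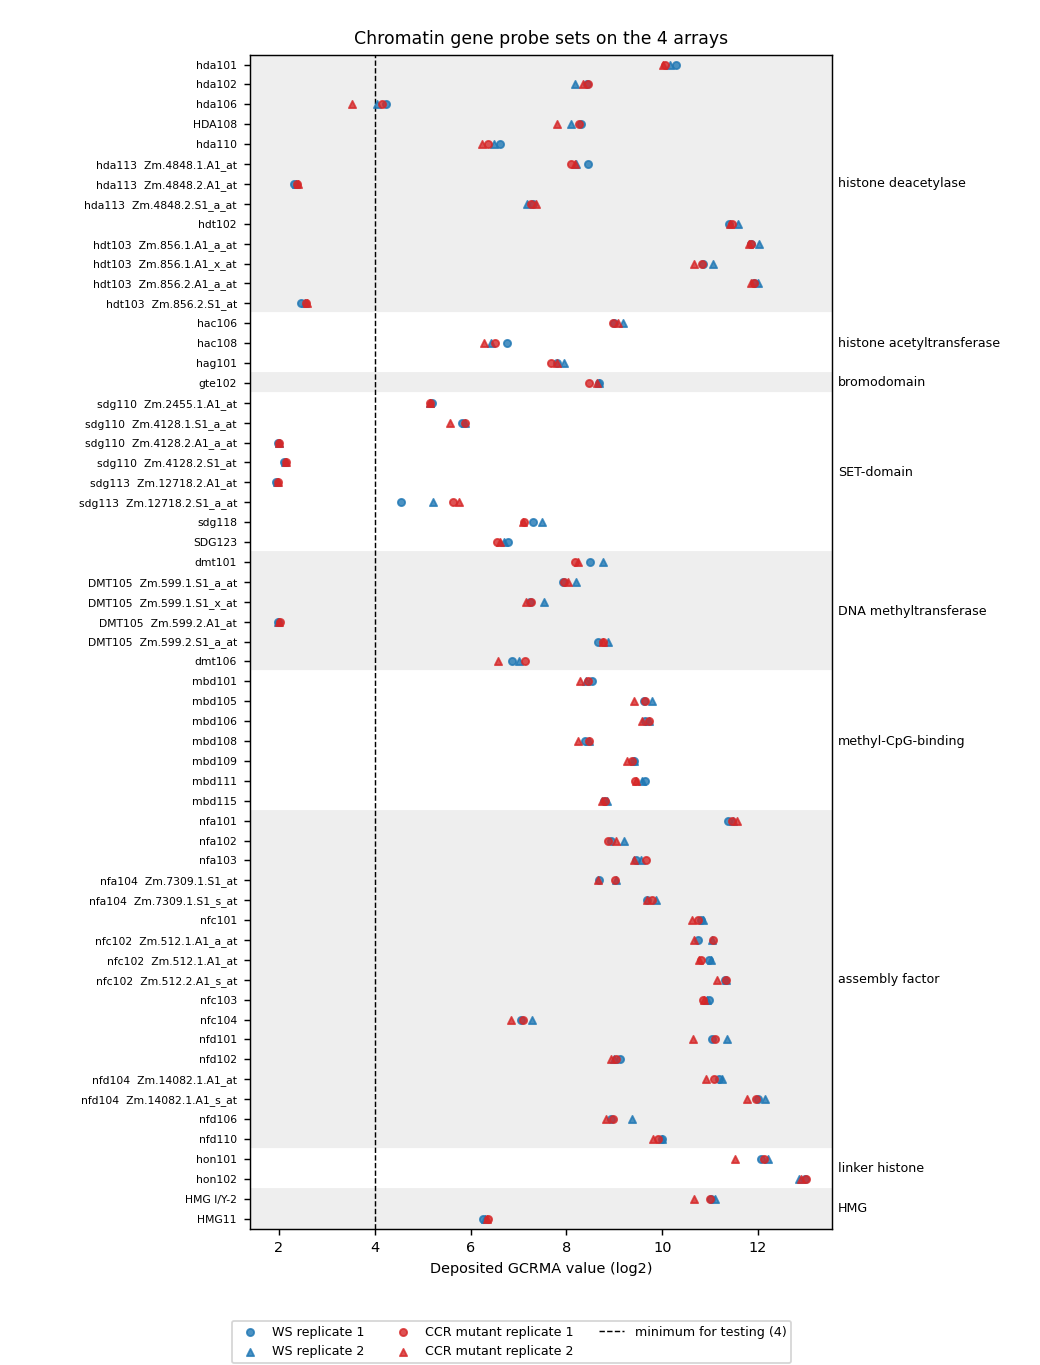
Deposited log2 values (horizontal axis) of all 59 chromatin gene probe sets, 1 row each, grouped by role; circles are replicate 1 and triangles replicate 2, blue for WS and red for CCR mutant, and the dashed line marks the minimum of 4. The 6 probe sets left of the line on every array lie at 2.59 or below, and in most rows the 4 points lie close together.

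**Figure D2:**
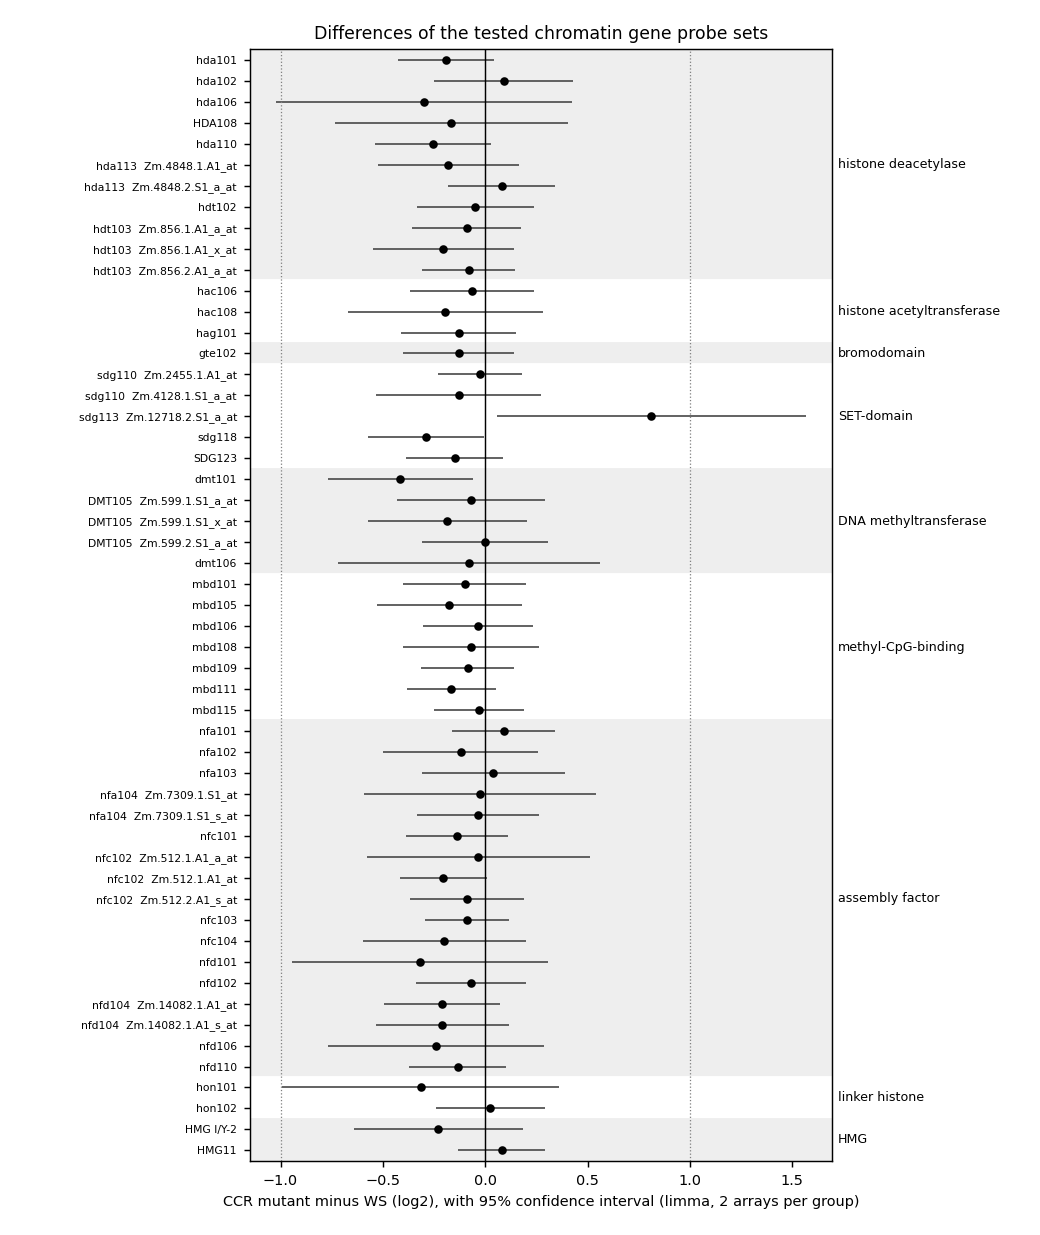
Difference between CCR mutant and WS (log2, points) with its 95% confidence interval from limma (bars, 2 arrays per group) for the 53 tested chromatin gene probe sets, grouped by role; dotted lines mark -1 and 1. Points lie left of 0 for 45 probe sets and right of 0 for 7, of which sdg113 lies farthest out at 0.81.

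The 8 histone deacetylase genes had 11 tested probe sets, 9 with lower and 2 with higher values in the mutant, beside 61.9% lower of all tested probe sets. The median difference of the 11 was -0.17 and none passed. The hda genes belong to the RPD3/HDA1 superfamily found in all eukaryotes. The probe set of hda110 was at 6.62 and 6.49 on the WS arrays and at 6.37 and 6.23 on the CCR mutant arrays. The arrays of the groups did not overlap, which was so for 36.5% of all tested probe sets. The difference of -0.26 (95% confidence interval -0.54 to 0.03) had a limma adjusted p of 0.781. The maize RPD3 gene hda101, whose RefSeq synonym is rpd3, was at 10.28 and 10.17 against 10.05 and 10.02. Its arrays did not overlap either, with a difference of -0.19 (SE 0.08). The values of hda102 differed by 0.09 and those of HDA108 by -0.17, with overlapping arrays in both.

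The gene hda106 was measured close to the minimum, at 4.24 and 4.05 on the WS arrays and 4.16 and 3.53 on the CCR mutant arrays. Only CCR mutant replicate 2 stood apart, and the interval of the difference (-1.02 to 0.42) was the widest of the deacetylases. The 2 tested probe sets of hda113 gave opposite signs. Zm.4848.1.A1_at was at 8.44 and 8.19 on the WS arrays and 8.09 and 8.18 on the CCR mutant arrays, a difference of -0.18 (SE 0.12). Zm.4848.2.S1_a_at was at 7.30 and 7.18 against 7.27 and 7.37, a difference of 0.08 (SE 0.09), so no direction can be given for this gene.

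The hdt genes encode HD2-type deacetylases, a class known only from plants and located largely in the nucleolus. All 4 of their tested probe sets, from 2 genes, had lower values in the CCR mutant, beside 61.9% of all tested probe sets. The differences were 0.21 at most in size, and all 4 stayed lower under both other scalings. Without WS replicate 2 the difference of hdt102 was 0.045. For hdt103 the probe set Zm.856.1.A1_a_at was at 11.85 and 12.01 on the WS arrays and 11.86 and 11.82 on the CCR mutant arrays. Zm.856.2.A1_a_at was at 11.92 and 12 against 11.91 and 11.85. Zm.856.1.A1_x_at, whose probes can bind related transcripts, was at 10.85 and 11.06 against 10.83 and 10.67. The 3 differences were -0.09, -0.08 and -0.21, each with an interval that included 0, and hdt102 differed by -0.05 (SE 0.10).

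The 3 histone acetyltransferase genes all had overlapping arrays and differences between -0.20 and -0.07. The gene hag101, the maize GCN5, encodes the acetyltransferase of SAGA-type coactivator complexes. It was at 7.81 and 7.94 on the WS arrays and at 7.68 and 7.81 on the CCR mutant arrays, a difference of -0.13 (95% confidence interval -0.41 to 0.15). The gene hac106, with the synonym hat1, was at 8.99 and 9.18 against 8.97 and 9.07. The third, hac108, also listed as ham101, differed by -0.20 (SE 0.17). The bromodomain gene gte102, from a family whose domain reads acetylated histones, was at 8.68 and 8.69 on the WS arrays and at 8.47 and 8.64 on the CCR mutant arrays. Its arrays did not overlap, and the difference was -0.13 (SE 0.09).

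SET-domain genes held the largest difference of the whole set, in sdg113. Its probe set was at 4.54 and 5.22 on the WS arrays and at 5.63 and 5.75 on the CCR mutant arrays. Both CCR mutant arrays lay above both WS arrays, and WS replicate 1 was the lowest. The difference was 0.81 (SE 0.26, 95% confidence interval 0.06 to 1.56, unadjusted p = 0.0411, adjusted p = 0.772). Without WS replicate 1 it was 0.47 and without WS replicate 2 it was 1.15.

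The other SET-domain genes had lower values in the mutant, except that Zm.2455.1.A1_at of sdg110 turned higher with arrays centred on their medians. For sdg118 the probe set was at 7.30 and 7.49 on the WS arrays and at 7.11 and 7.10 on the CCR mutant arrays. The arrays of the groups did not overlap, and the difference was -0.29 (SE 0.10, unadjusted p = 0.0473, adjusted p = 0.772). The values of SDG123 did not overlap either and differed by -0.15 (SE 0.08). For sdg110 the tested probe set Zm.4128.1.S1_a_at was at 5.81 and 5.89 against 5.88 and 5.56, and Zm.2455.1.A1_at was at 5.18 and 5.16 against 5.15 and 5.15. The arrays overlapped on the former and not on the latter, and the differences of -0.13 (SE 0.14) and -0.03 (SE 0.07) had intervals that included 0.

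Among the DNA methyltransferases dmt101 had the largest difference in size. It is the maize MET1 gene, which encodes the enzyme that maintains CG methylation on newly copied DNA. Its probe set was at 8.49 and 8.76 on the WS arrays and at 8.18 and 8.24 on the CCR mutant arrays. Both CCR mutant arrays lay below both WS arrays, with WS replicate 2 the highest. The values differed by -0.42 (SE 0.12, 95% confidence interval -0.77 to -0.06), which puts the mutant at 75.0% of WS. Its unadjusted p was 0.0319 and its adjusted p 0.772. With 1 array left out the difference ran from -0.55 to -0.28.

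The chromomethylase gene DMT105 (met5, Zmet5), of a plant family that methylates cytosines outside CG, had values that lay closer together. Zm.599.2.S1_a_at was at 8.65 and 8.87 on the WS arrays and at 8.76 on both CCR mutant arrays, a difference of 0.00 (95% confidence interval -0.31 to 0.31). Zm.599.1.S1_a_at was at 7.92 and 8.19 against 7.94 and 8.03. Zm.599.1.S1_x_at was at 7.25 and 7.54 against 7.27 and 7.15, and the arrays of all 3 overlapped. The difference between dmt101 and DMT105 was not tested. The gene dmt106 was at 6.86 and 7.00 on the WS arrays and at 7.13 and 6.57 on the CCR mutant arrays, so that its CCR mutant arrays lay on either side of both WS arrays.

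All 7 methyl-CpG-binding genes were tested and all had lower values in the CCR mutant as deposited, beside 61.9% of all tested probe sets. However, mbd106 and mbd115 turned higher with arrays centred on their medians (5 of 7 lower) and mbd115 with repeated quantile normalization (6 of 7). The deposited differences ran from -0.18 to -0.03, with a median of -0.09. None passed, and 2 of the 7, mbd109 and mbd111, had arrays that did not overlap, where 36.5% of all tested probe sets did not. The probe set of mbd111 was at 9.64 and 9.57 on the WS arrays and at 9.43 and 9.45 on the CCR mutant arrays, a difference of -0.17 (SE 0.08, adjusted p = 0.798). The probe set of mbd106 was at 9.65 and 9.73 against 9.73 and 9.58, a difference of -0.04 (SE 0.09). The intervals of the 7 genes together reached from -0.53 to 0.26, so a difference as large as that measured for cncr1 was outside all of them.

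The 13 genes named as assembly factors (nfa, nfc and nfd, with HMG-box proteins among the nfd genes) had 17 tested probe sets, all with intervals inside -1 to 1. They had a median difference of -0.12, with 15 lower and 2 higher in the mutant and none passing, beside 61.9% lower of all tested probe sets. With arrays centred on their medians 12 were lower and 5 higher. The 4 nfa genes, of the nucleosome assembly protein type that carries histones H2A and H2B, varied around 0, from -0.12 for nfa102 to 0.09 for nfa101. The probe sets of nfa104 were at 8.69 and 9.04 on the WS arrays against 9.02 and 8.66, and at 9.68 and 9.86 against 9.79 and 9.68. In both, the arrays of the groups overlapped.

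The nfc genes encode WD40-repeat proteins of the MSI1/RbAp type, histone-binding subunits shared by chromatin assembly, deacetylase and Polycomb complexes. All 6 of their probe sets, from 4 genes, had lower values in the CCR mutant, between -0.21 and -0.04, beside 61.9% lower of all tested probe sets. Only Zm.512.1.A1_a_at of nfc102 turned higher with arrays centred on their medians. The gene nfc102 was read by 3 probe sets. Zm.512.1.A1_at was at 10.97 and 11.02 on the WS arrays and at 10.81 and 10.77 on the CCR mutant arrays, a difference of -0.21 (SE 0.07, adjusted p = 0.774) with groups that did not overlap. Zm.512.1.A1_a_at was at 10.75 and 11.03 against 11.05 and 10.66, and Zm.512.2.A1_s_at at 11.31 and 11.33 against 11.32 and 11.14. Both had overlapping arrays, so the separation on the first probe set was not seen on the others. The values of nfc101 (rbap2) differed by -0.14 and those of nfc103 by -0.09, each without overlap, and nfc104 differed by -0.20 with overlap.

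The nfd genes encode HMG-box proteins, which bend DNA, and the SSRP1 subunit of the FACT histone chaperone. All 6 of their probe sets, from 5 genes, had lower values in the mutant, beside 61.9% of all tested probe sets. The median difference of the 6 was -0.21, and all 6 stayed lower under both other scalings. The gene nfd104 (hmg2) was at 11.18 and 11.24 on the WS arrays and at 11.09 and 10.91 on the CCR mutant arrays on Zm.14082.1.A1_at. On Zm.14082.1.A1_s_at it was at 11.99 and 12.15 against 11.95 and 11.77. Both probe sets gave a difference of -0.21 (SE 0.10 and 0.11) with groups that did not overlap. SSRP1, named nfd110 here, was at 10.00 and 9.99 on the WS arrays and at 9.92 and 9.80 on the CCR mutant arrays, a difference of -0.14 (SE 0.08). For nfd101 the values were 11.04 and 11.35 against 11.11 and 10.64, so the difference of -0.32 (SE 0.22) came with overlapping arrays.

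CCR mutant replicate 2 was also the lowest array for the linker histone H1 gene hon101. It was at 12.07 and 12.20 on the WS arrays and at 12.12 and 11.52 on the CCR mutant arrays, a difference of -0.32 (SE 0.24) that was -0.02 without CCR mutant replicate 2. The other, hon102 (his1a), was at 12.98 and 12.85 against 12.99 and 12.89, a difference of 0.03 (SE 0.09). HMG I/Y-2 encodes an AT-hook protein of the HMGA type that binds AT-rich DNA. It was at 11.01 and 11.10 on the WS arrays and at 10.99 and 10.66 on the CCR mutant arrays. The groups came close, at 11.01 and 10.99 on their nearest arrays, and the difference was -0.23 (SE 0.14, adjusted p = 0.809). It ran from -0.40 to -0.07 with 1 array left out, the smaller size being without CCR mutant replicate 2. HMG11 had slightly higher values in the CCR mutant, at 6.37 and 6.34 against 6.25 and 6.30, a difference of 0.08 (SE 0.07) without overlap.

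The 6 probe sets that were not tested had values between 1.94 and 2.59 on every array, where 65 of the 66 controls for foreign reporter genes stayed at or below 3.43. They belong to hda113, hdt103, sdg110 (2 of them), sdg113 and DMT105, each of which also had a tested probe set.

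Across the set, the signs leaned to lower values in the CCR mutant. Of 53 tested members 45 had lower values, 7 higher and 1 the same (84.9% lower), beside 61.9% lower of all tested probe sets. With each array centred on its median, 39 of 53 (73.6%) were lower, beside 50.6% of all. The median difference was -0.12, beside -0.05 over all tested probe sets. Arrays of the groups did not overlap in 21 members (39.6%), beside 36.5% of all tested probe sets. In 19 of these the CCR mutant was lower (35.8%, beside 23.5%) and in 2 it was higher (3.77%, beside 13%). Counting 1 probe set per gene, 36 of 43 genes had lower values, with a median of -0.13.

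**Figure D3:**
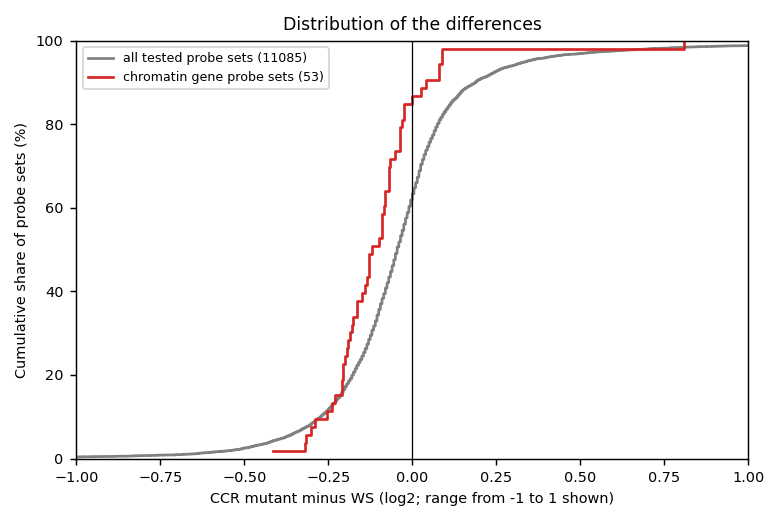
Cumulative share (vertical axis, %) of differences between CCR mutant and WS (horizontal axis, log2, shown from -1 to 1) for the 53 chromatin gene probe sets (red) and all 11085 tested probe sets (grey). The red line is at 84.9% just below 0 where the grey line is at 61.9%, and the medians lie at -0.12 and -0.05.

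CCR mutant replicate 2 alone was the lowest of the 4 for 34 of 53 members (64.2%), beside 30.2% of all tested probe sets. WS replicate 2 alone was the highest for 28 of 53 (52.8%), beside 27.9%. The median deviation of the members from their own mean over the 4 arrays was 0.02 and 0.08 on the WS arrays and -0.01 and -0.11 on the CCR mutant arrays. Within the CCR mutant, replicate 2 was below replicate 1 by a median of 0.11, about as far as the median between the groups. Between replicates 1 of both groups the median was -0.02, beside a median of -0.06 over all tested probe sets. In this pair 28 of 53 members were lower, and the share of all tested probe sets was not counted.

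Without CCR mutant replicate 2 the median of the members was -0.07 and 34 of 53 (64.2%) were lower, where all tested probe sets had a median of -0.05 and 62.3% lower. Without WS replicate 2 the median was -0.09 with 38 of 53 lower (71.7%, beside 62.3% of all). Without WS replicate 1 it was -0.14 with 47 lower (88.7%, beside 56.0%), and without CCR mutant replicate 1 it was -0.18 with 47 lower (88.7%, beside 57.3%). The sign of the difference held with each of the 4 arrays left out in 34 of 53 members, 30 of them lower and 4 higher. The same count was not made over all tested probe sets, so whether the members stand out in this is not known.

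All 16 tested genes of the list of meristem and dividing cells had lower values in the mutant, beside 61.9% of all tested probe sets. RBR1 turned higher (15 of 16 lower) with arrays centred on their medians or quantile normalization repeated. The median difference of the 16 genes was -0.27, and 0 passed (limma). At an unadjusted p under 0.05 there were 2, beside 6.43% of all tested probe sets. The summed signal of the 16 genes was 7515 and 8447 on the WS arrays and between 6986 and 7087 on the CCR mutant arrays. Over their 19 probe sets the median deviation was -0.02 and 0.15 on the WS arrays and -0.04 and -0.19 in the CCR mutant, so by median WS replicate 2 was the highest and CCR mutant replicate 2 the lowest here too. WS replicate 2 alone was the highest for 14 of the 19, beside 27.9% of all tested probe sets. CCR mutant replicate 2 alone was the lowest for 14, beside 30.2%. The median difference of the 19 was -0.26, or -0.17 without CCR mutant replicate 2 and -0.13 without WS replicate 2. With either array left out 16 of 19 were lower (84.2%, beside 62.3% of all tested probe sets). The replication clamp gene PCNA was at 9.09 and 9.43 on the WS arrays and at 9.08 and 8.70 on the CCR mutant arrays. The meristem homeobox gene KN-1 differed in this, with its highest value on WS replicate 1, at 9.04 and 8.38 against 8.49 and 8.35. For lg3 the values were 6.28 and 5.32 against 5.29 and 5.55, and RBR1 had its lowest array in WS replicate 2. The part of these cells in the values of the chromatin genes was not tested.

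**Figure D4:**
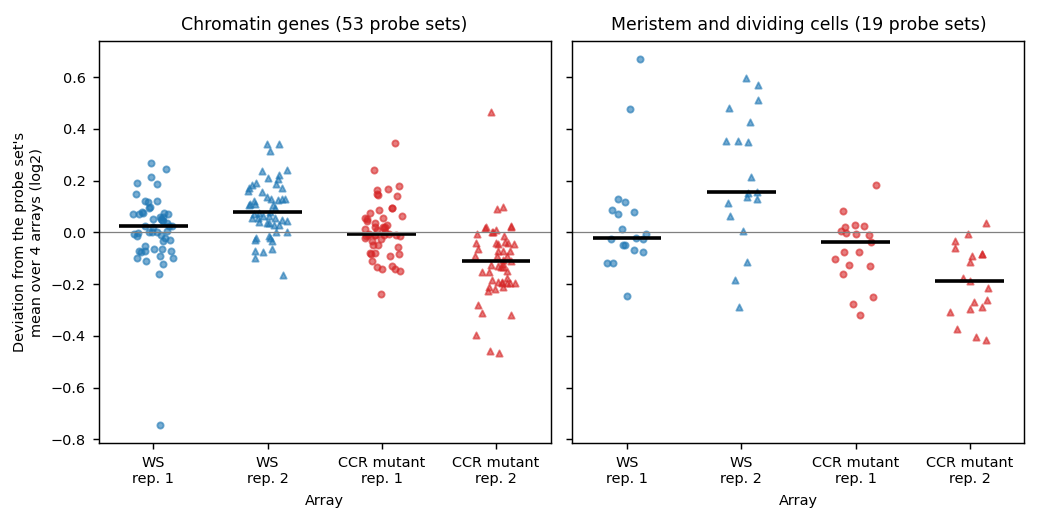
Deviation of each probe set from its own mean over the 4 arrays (vertical axis, log2) on each array (horizontal axis), for the 53 chromatin gene probe sets and 19 probe sets of meristem and dividing cells; points are probe sets and black bars medians. In both panels the bar is highest for WS replicate 2 (0.08 and 0.15) and lowest for CCR mutant replicate 2 (-0.11 and -0.19).

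Other genes listed by name as chromatin genes, outside the naming rule, were 13 in number, of which 11 were tested and 0 passed (limma). The core histone gene his2b5, with a difference of -0.09, is also on the list of meristem and dividing cells, so the lists share it. At an unadjusted p under 0.05 there was 1, beside 6.43% of all tested probe sets. Lower values in the mutant were found in 8 of the 11, beside 61.9% of all tested probe sets, and higher values in 3. The 3 were mez2, IBP1 (0.325) and ibp2 (0.29), and whether IBP1 and ibp2 act on chromatin was not checked. The median difference of the 11 was -0.09, beside -0.05 over all tested probe sets. The gene with the smallest p was epc101, named for enhancer of Polycomb, a subunit of histone acetyltransferase complexes. It was at 4.77 and 4.67 on the WS arrays and at 4.19 and 3.98 on the CCR mutant arrays. The arrays of the groups did not overlap, and the difference was -0.64 (SE 0.11, unadjusted p = 0.00577, adjusted p = 0.533).

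The Polycomb methyltransferase genes of maize did not share a sign. The values of mez1 were 8.19 and 8.72 on the WS arrays and 8.48 and 8.30 on the CCR mutant arrays, a difference of -0.07. The values of mez2 were 8.14 and 7.91 against 8.30 and 8.35, a difference of 0.30 (SE 0.11) without overlap, and mez3 lay at background. Of the partner genes fie1 and fie2, fie1 was at background and fie2 differed by -0.10. The GCN5 partner ADA2, named hxa102, was at 9.20 and 9.19 against 9 and 8.99, a difference of -0.20 (SE 0.07, adjusted p = 0.774) with groups that did not overlap.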

How the data were processed

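The deposited values are log2 signals that the authors obtained with GCRMA, per the submitters' processing notes, which give no version. This method subtracts a background modelled from the probes' base composition, equalizes the arrays by quantiles and summarises the probes of each probe set. The base of the logarithm is not stated and is taken as 2 from the range of 1.12 to 14.1. Control probe sets (113 AFFX and 66 reporter-gene) were left out. Probe sets at 4 or more on at least 2 arrays (11085 of 17555) entered 1 two-sided fit of CCR mutant against WS with limma 3.58.1 (plain lmFit and eBayes) under R 4.3.3, and p-values were adjusted over the whole table by Benjamini-Hochberg, with a threshold of 0.05. There were 2 residual and 1.70 prior degrees of freedom. The script was tested on simulated data.

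Names were taken from the array's annotation of 2007, with 1452 probe sets tied to a single gene, and from RefSeq for Zm-B73-REFERENCE-NAM-5.0. Coordinates are left out because the array's build is not stated, and no sequences were used. The members and lists were chosen with earlier results of these data known. Values on every array are given, by rule, for members that pass (none did), the smallest p and the highest mean in each role, all tested probe sets of a gene with several, and HMG I/Y-2; other genes shown with array values were chosen after their values were seen. A list of epidermis and cuticle genes (3 of 4 tested, median 0.26, 0 passing) was also measured; the 7 secondary wall and xylem genes had a median of -0.08 and 0 passing, the 13 leaf genes 0.09 and 0 passing. The alternatives were other filters, normalizations and variance models, a replicate block, a floor at 4, leaving out _s_at and _x_at probe sets and leaving out each array.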

Additional observations from a re-analysis of the deposited data

How the results depend on the processing

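The count of passing members was 0 in the reported fit and in all 13 alternatives, and the lowest adjusted p of the 29 members described by rule was 0.464 in any of them. The count over the whole array, 17 as reported, was 9 with no filter, 0 with the replicate number as a block and 0 to 0 with 1 array left out. The labels do not say that equal numbers pair the samples, and the deviations from the group means correlated at 0.35 over 11085 probe sets; with 2 arrays per group both numbers give the same value by construction, and the block left 2 of the 3 members at an unadjusted p under 0.05, with sdg118 at 0.0715. Of the 368 values of those 29 members, 335 kept the sign of the reported difference and 19 turned it; 13 belong to a probe set of DMT105 (Zm.599.2.S1_a_at) reported at 0, and 1 of nfc102 (Zm.512.2.A1_s_at) came to 0. Arrays centred on their medians gave 0.005 for mbd106, 0.015 and 0.005 for the probe sets of nfa104, 0.005 for nfc102 (Zm.512.1.A1_a_at) and 0.014 for sdg110 (Zm.2455.1.A1_at), and repeated quantile normalization gave 0.017 for nfa104, all with the sign turned. With 1 array left out the sign turned in 8: DMT105 (Zm.599.1.S1_a_at, -0.205 to 0.065), hac106 (-0.16 to 0.03), hon102 (-0.04 to 0.09), mbd106 (-0.11 to 0.04), nfa104 (-0.20 to 0.15 and -0.125 to 0.055), nfc102 (-0.23 to 0.16) and sdg110 (Zm.4128.1.S1_a_at, -0.29 to 0.03). The members' median stayed between -0.18 and -0.07. The count at an unadjusted p under 0.05, 3 as reported, was 6 with no filter, 1 with repeated quantile normalization, 2 with the block, with arrays centred on their medians or with a minimum of 6, and between 0 and 4 with 1 array left out. The number of arrays limits the precision.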
